A study of Canis lupus familiaris with 6 samples.

Results

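Heat shock chaperones fold newly made and damaged proteins, and the unfolded protein response (UPR) adjusts folding capacity in the endoplasmic reticulum (ER). The genes were taken by their name on the array: those beginning with HSPA, HSPB, HSP90, DNAJA, DNAJB, DNAJC or PDIA, and HSPD1, HSPE1, HSPH1, HSF1, DDIT3, ATF4, ATF6, XBP1, ERN1, EIF2AK3, HERPUD1, CALR, CANX, TRIB3 and ASNS, without HSPBP1 and HSPBAP1. The rule found 72 genes among 34378 names, carried by 132 of 43603 probes. No measured value entered this choice by name, but it was made with earlier results of these data known. No probe bore the names ASNS, HSPA1A or HSPA8. For each gene the probe with the highest mean signal was used.

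Gene expression was compared between RasV12 cells cultured alone (3 arrays) and RasV12 cells recovered from co-culture with normal cells (mixed, 3 arrays). The cells were MDCK-pTR GFP-RasV12 cells, a dog kidney epithelial line (Madin-Darby canine kidney, MDCK) in which tetracycline switches on a GFP-RasV12 fusion. Both groups received tetracycline for 24 h and were sorted for GFP, and each sample was hybridised to a 1-colour Agilent canine array. Mixed cultures held 10 MDCK cells per RasV12 cell by the study's methods, but 100 by the label of mixed replicate 2. In the labels, the RNA extraction is described for cells with mCherry-β-catenin Δ131, a stabilised β-catenin, whereas the titles and the study's account of this experiment give RasV12 cells without it. No source used here says whether the replicates came from separate cultures, so p-values measure the spread between these samples, which may be technical. The alone arrays shared 1 slide and the mixed arrays another, so the effect of the slide and that of the culture cannot be told apart.

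The share of probes well above background per array was 60.8% to 66.4%. Kidney epithelial markers were well above background on all 6 arrays for 6 of 6 genes, CDH1, EPCAM and PAX8 among them. Of 7 fibroblast markers, 4 were well above background on all 6 arrays (COL1A1, COL1A2, LUM and PDGFRB), whereas COL3A1 and PDGFRA were so on no array. Of 7 leukocyte markers, 4 could be tested (CD14, CD68, CD79A and CD3E), whereas PTPRC was well above background on no array. The summed intensity, not scaled between arrays and carried mostly by COL1A2 and CD68, was 779 to 858 alone and 821 to 911 mixed for the fibroblast list and 1182 to 1373 alone and 1174 to 1343 mixed for the leukocyte list. On the scaled values 3 of 4 tested genes of each list were higher in mixed culture without overlap, and 0 were called (limma, COL1A2 and LUM at an unadjusted p under 0.05). Over the whole array, 37.2% of tested probes separated alone from mixed arrays completely, counting both directions. With 4 tested genes per list, these counts are too small to show a shift in fibroblast or leukocyte content. Of 10 Ras-MAPK output genes, EGR1 was called higher in mixed culture and CCND1 and FOSL1 lower, of which CCND1 lost its call with the replicate number as a block (adjusted p = 0.063, limma). Of 14 immediate early and cell handling genes, 6 were called higher and 0 lower (limma, 8 higher and 0 lower at an unadjusted p under 0.05, and 2 called by the methods' t-test after adjustment). Over all tested probes 5.5% were called higher and 5.72% lower, and 31.4% had an unadjusted p under 0.05 (limma). The summed intensity of the 14 genes was 101422 to 106806 on the alone arrays and 125438 to 150710 on the mixed arrays. It was carried mostly by FOS (35573 to 44941 alone and 53540 to 68821 mixed) and by JUN, which was not called. EGR1 stands in both this list and the Ras-MAPK list. The part of these shifts in the results that follow was not tested.

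HSP70 proteins bind exposed hydrophobic stretches of client proteins and are driven by J-domain (DNAJ) co-chaperones, whereas HSP90 proteins act on more advanced folding intermediates. In the ER these tasks fall to HSPA5 (BiP) and HSP90B1 (GRP94), with protein disulfide isomerases forming disulfide bonds and the lectins calnexin and calreticulin holding glycoproteins. Misfolded protein in the ER is sensed by ATF6, ERN1 (IRE1) and EIF2AK3 (PERK), which act through cleaved ATF6, spliced XBP1 and ATF4. HSF1 is the master transcription factor of the cytosolic heat shock response.

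Of the 72 genes, 61 were well above background on all 6 arrays and were tested. On these, 0 were called higher and 6 lower in mixed culture (limma with Benjamini-Hochberg adjustment over 26534 probes, adjusted p under 0.05). The 6 were the ER chaperones HSPA5 and HSP90B1, the disulfide isomerase PDIA6, the cytosolic J protein DNAJB1, the mitochondrial chaperonin HSPD1 and the mitochondrial J protein DNAJC11. This was 9.84% of the tested genes, against 11.2% of all tested probes called in either direction, 5.5% higher and 5.72% lower. Taken over both directions, the share called was thus close to that of the array. At an unadjusted p under 0.05, 6 genes were higher and 15 lower, 34.4% of the 61 against 31.4% of all tested probes. The methods' t-test called 0 higher and 4 lower after adjustment.

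The fitted difference (log2, mixed minus alone) was above 0 for 22 genes and below 0 for 39, with a median of -0.07 against -0.004 over all tested probes. It ran from -0.55 for DNAJB1 to 0.66 for DNAJC22, and 0 genes reached a 2-fold difference. Scaled to the spike-in controls instead, which lowers the median of all probes by -0.16, the same 61 genes gave 11 differences above 0 and 50 below, with 4 called lower. The calls over the array were then 303 higher and 701 lower, against 1459 and 1519. The groups did not overlap for 27 genes, 8 higher and 19 lower, which is 44.3% of those tested against 37.2% of all tested probes.

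**Figure D1:**
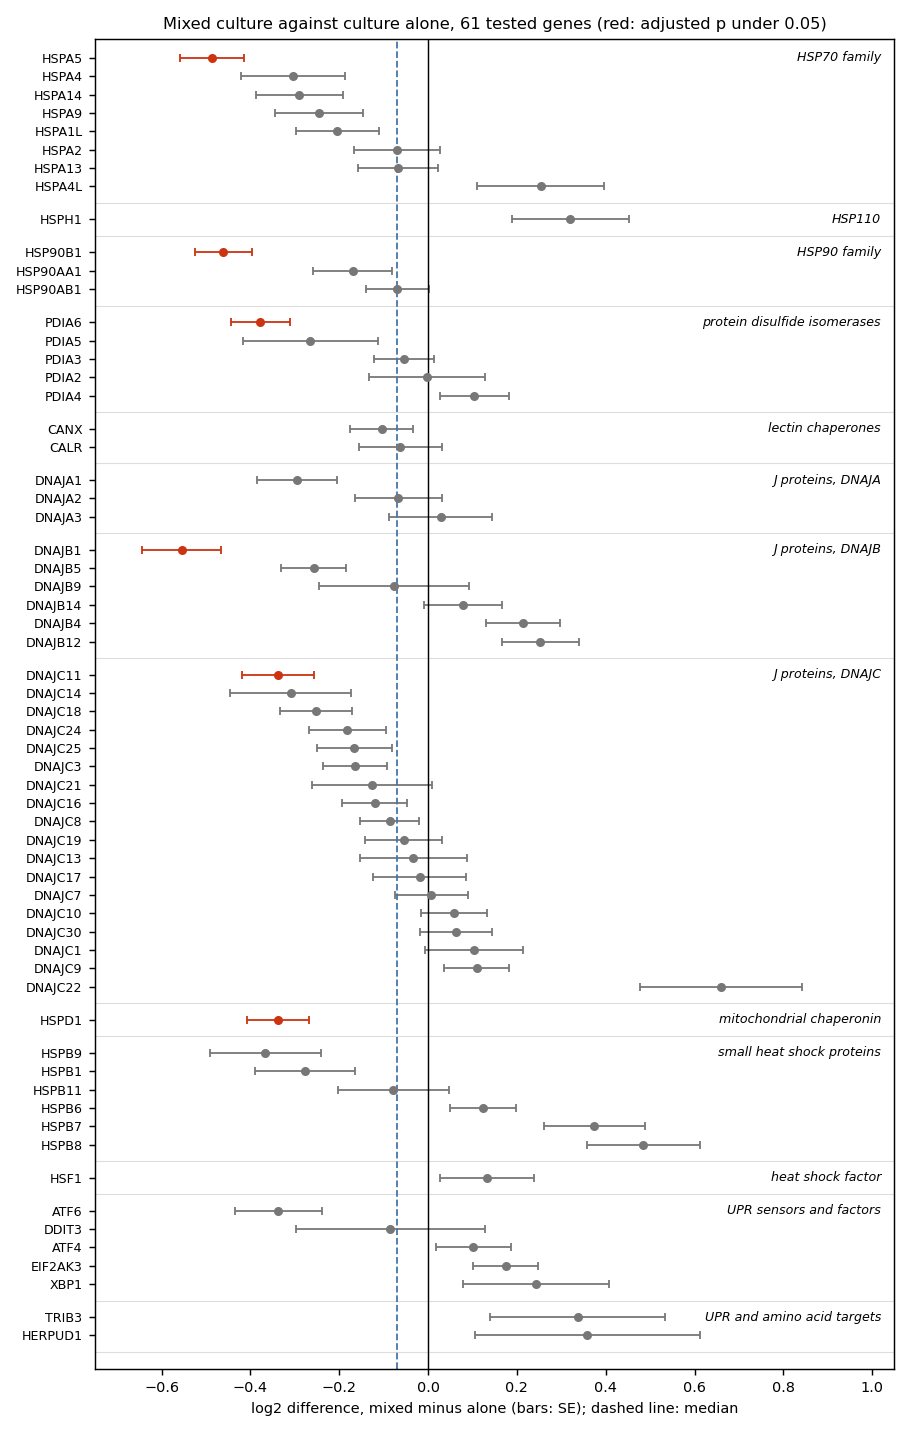
Log2 difference, mixed minus alone, with its standard error (x axis) for the 61 tested chaperone and ER stress genes, grouped by role (y axis). Red points mark the 6 genes with an adjusted p under 0.05, all below 0, and the dashed line marks the median of -0.07.

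Of the called genes, 5 carried a probe with a reading frame free of stop codons, and such a probe is shown for each to give the transcript sequence that was measured. For HSPD1 and DNAJC11 it is the probe used for the gene, and for HSPA5, HSP90B1 and DNAJB1 it is a further probe. These further probes were each called lower too, whereas for HSPD1 and DNAJC11 the call is that of the gene itself. The remaining DNAJB1 probe, given below, was not called. Positions are those of the array annotation on canFam3, which does not say which exon a probe falls in. The HSPA5 probe at chr9:57851591-57852098 (plus strand), the HSPD1 probe at chr37:7016880-7017469 (minus strand) and the DNAJC11 probe at chr5:60462864-60465929 (minus strand) are 60 bases long and cover 508, 590 and 3066 bases of the genome, so that their matches are split. The HSP90B1 probe lies at chr15:42459518-42459577 and the DNAJB1 probe at chr20:48129240-48129299, both on the plus strand.
HSPA5: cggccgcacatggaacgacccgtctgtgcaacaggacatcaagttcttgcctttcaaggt
HSP90B1: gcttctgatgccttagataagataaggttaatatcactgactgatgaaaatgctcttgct
DNAJB1: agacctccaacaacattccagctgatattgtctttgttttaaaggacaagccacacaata
HSPD1: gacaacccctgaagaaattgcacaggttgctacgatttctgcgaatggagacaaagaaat
DNAJC11: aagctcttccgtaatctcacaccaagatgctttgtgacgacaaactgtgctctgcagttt

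Of the 6 called genes, 3 work in the ER. HSPA5, the ER-resident HSP70 and a classical UPR target, had scaled log2 intensities (log2 intensity minus the 75th percentile of the array) of 6.26, 6.36 and 6.24 alone and 5.76, 5.85 and 5.79 in mixed culture. Every mixed array lay below every alone array. The difference was -0.49 (SE 0.07, adjusted p = 0.018, limma), which is 1.40-fold higher alone. HSPA5 had 3 probes in all, which include the printed one, and each was called lower, by -0.44 to -0.50. In a bulk sample, fewer cells that express a gene and less RNA per cell cannot be told apart.

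HSP90B1, the ER paralogue of HSP90, was 6.34, 6.33 and 6.30 alone and 5.84, 5.88 and 5.87 in mixed culture. The spread within a group was small beside the gap between groups. The difference was -0.46 (SE 0.06, adjusted p = 0.017, limma), and the second probe, printed above, was called lower by -0.42.

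PDIA6, a disulfide isomerase that works with HSPA5, was 6.36, 6.29 and 6.28 alone and 5.94, 5.90 and 5.96 in mixed culture. The groups did not overlap, and the difference was -0.38 (SE 0.07, adjusted p = 0.024, limma). Its other probes were at -0.23 and -0.28 (adjusted p = 0.092 and 0.066, limma), short of the threshold.

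The other members of these ER groups were not called. PDIA3, which folds glycoproteins together with the lectins, was at -0.05 (adjusted p = 0.62, limma). CANX, the membrane-bound lectin, was at -0.10 (adjusted p = 0.36, limma). CALR, its soluble counterpart, was at -0.06 (adjusted p = 0.69, limma). For CALR and PDIA4 the result rested on the probe. The CALR probe used gave -0.06, whereas the probe at chr20:49252283-49252342 was called lower by -0.31 (adjusted p = 0.043, or 0.055 with the replicate block, limma). PDIA4, a large disulfide isomerase, gave 0.10 (adjusted p = 0.41, limma) at the probe used and -0.37 (adjusted p = 0.035, limma) at the second, which was called lower. On that second PDIA4 probe the alone arrays were at 3.51, 3.35 and 3.49 and the mixed arrays at 3.13, 3.03 and 3.08.

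**Figure D2:**
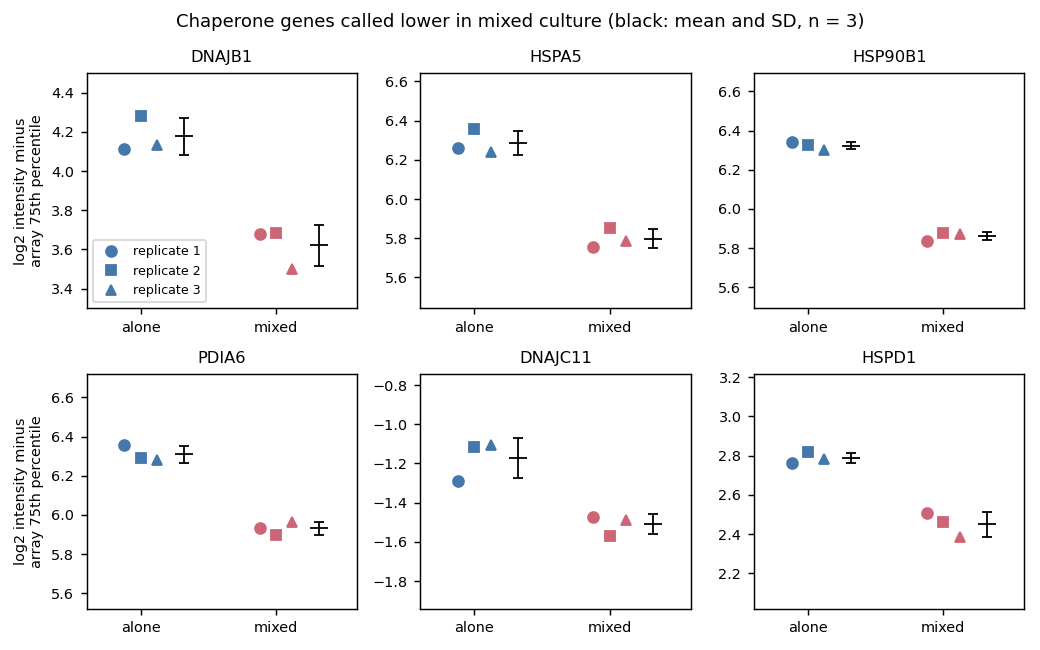
Scaled log2 intensity (y axis, log2 intensity minus the 75th percentile of the array) of the 6 called genes on each array (x axis: culture alone or mixed culture; symbols: replicates 1 to 3; black: mean and SD, n = 3). In each panel every mixed array lies below every alone array, with HSP90B1 at 6.30 to 6.34 alone and 5.84 to 5.88 in mixed culture.

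In the cytosol, DNAJB1, the main J protein partner of inducible HSP70 and an HSF1 target, was 4.11, 4.28 and 4.13 alone and 3.68, 3.68 and 3.50 in mixed culture. Each mixed array was below each alone array. The difference of -0.55 (SE 0.09, adjusted p = 0.020, limma) was 1.47-fold higher alone. The printed probe was called lower too, by -0.54 (adjusted p = 0.043, limma), but not with the replicate block (adjusted p = 0.076, limma). The remaining probe, at chr20:48130232-48130291, gave 0.03 (SE 0.16, adjusted p = 0.91, limma), with alone arrays at 0.06, -0.47 and -0.47 and mixed arrays at -0.11, -0.39 and -0.28. The call for DNAJB1 was lost when the probes of the gene were averaged, at -0.35, and by the methods' t-test.

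The cytosolic HSP90 genes were not called at the probes used. HSP90AA1, the inducible isoform, was 6.37, 6.54 and 6.50 alone and 6.34, 6.38 and 6.18 in mixed culture, so that the groups overlapped. Its difference was -0.17 (SE 0.09, adjusted p = 0.24, limma). The second HSP90AA1 probe was called lower by -0.55 (adjusted p = 0.025, limma), and 4 probes of another HSP90AA1 transcript, which carry an accession in place of the name, were at -0.28 to -0.40 (adjusted p = 0.058 to 0.097, limma). HSP90AB1, the constitutive isoform, was at -0.07 (SE 0.07, adjusted p = 0.54, limma).

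Of the 8 tested HSP70 genes, HSPA5 was the one called, and the others ran from -0.30 for HSPA4 to 0.25 for HSPA4L. HSPA4 is a nucleotide exchange factor of the HSP110 type. HSPH1, the HSP110 protein that recycles HSP70, was 2.19, 2.52 and 2.51 alone and 2.53, 2.75 and 2.88 in mixed culture. The groups did not overlap, but the gap was narrow, and the difference of 0.32 (SE 0.13, adjusted p = 0.15, limma) did not pass the threshold.

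The stress-inducible HSP70 itself was outside the rule, since its probes are named HSP70, and it was looked up after its values were seen. Its 4 probes gave -0.97 to -1.18, larger than any difference among the 61 genes, without a call (adjusted p = 0.077 to 0.11, limma). At the probe on chr12:1287236-1287295 the alone arrays were at 0.77, 2.06 and 2.14 and the mixed arrays at 0.55, 0.35 and 0.54. Alone replicate 1 thus lay close to the mixed arrays and far below the other alone arrays. Without alone replicate 1 the 4 probes were called lower by -1.39 to -1.64 (adjusted p = 0.0029 to 0.0065, limma). That fit called 26.4% of all tested probes. It left out the array set apart by these same values, so it is no independent support. With any other single array left out, the 4 probes had an adjusted p of 0.15 to 0.29 (limma). Because genes of this family share sequence, the HSP70 probe is shown with the aligned probes of its chromosomal neighbour HSPA1L and of HSPA5, with bases identical to the HSP70 probe in capitals.
HSP70: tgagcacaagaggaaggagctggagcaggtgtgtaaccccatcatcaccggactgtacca
HSPA1L: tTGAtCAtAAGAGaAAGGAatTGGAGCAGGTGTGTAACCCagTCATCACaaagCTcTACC
HSPA5: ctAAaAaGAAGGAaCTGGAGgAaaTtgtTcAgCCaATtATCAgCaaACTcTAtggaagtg

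The HSPA1L probe (chr12:1281558-1281617, minus strand) matched the HSP70 probe at 47 of 59 aligned bases and the HSPA5 probe (chr9:57855145-57855204, plus strand) at 33 of 55, without gaps. HSPA1L was at -0.20 (SE 0.09, adjusted p = 0.19, limma), with -1.98, -1.80 and -1.81 alone and -1.94, -2.18 and -2.09 in mixed culture. The HSPA5 probe shown was called lower by -0.44 (adjusted p = 0.023, limma). For HSPA8, the constitutive cytosolic HSP70, the 2 probes that carry an accession in place of its name were at -0.11 and -0.15 (adjusted p = 0.37 and 0.18, limma).

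J proteins bring clients to HSP70 and stimulate its ATPase. Of 27 tested DNAJA, DNAJB and DNAJC genes, DNAJB1 and DNAJC11 were called lower. DNAJB9, an ER J protein induced by XBP1, was at -0.08 (SE 0.17, adjusted p = 0.79, limma). The highest difference, for DNAJC22, was 0.66 (SE 0.18, adjusted p = 0.064, limma), at intensities of 31.3 to 46.0 alone and 52.6 to 60.6 in mixed culture, where the detection limit (the dimmest probe still well above background) was 9.15 to 14.6 by array. Of the J proteins annotated by transcript alone and thus outside the rule, looked up after their values were seen, DNAJB6 had 2 probes. One was called lower by -0.41 (adjusted p = 0.030, or 0.053 with the replicate block, limma), and the other was at -0.74 (adjusted p = 0.12, limma). DNAJB11, an ER partner of HSPA5, was at -0.28 (adjusted p = 0.057, limma), DNAJC2 at -0.22 and DNAJC12 at 0.03, none of them called. The 6 DNAJB genes ran from -0.55 to 0.25, so members of 1 family lay on both sides of 0.

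In mitochondria, HSPD1 (HSP60), which forms the folding chamber of the matrix, was 2.77, 2.82 and 2.78 alone and 2.51, 2.46 and 2.38 in mixed culture. Each mixed array was below each alone array, with a difference of -0.34 (SE 0.07, adjusted p = 0.033, limma). A probe of another HSPD1 transcript, outside the rule, gave -0.21 and was not called (adjusted p = 0.092, limma). It was the brighter probe, at intensities of 65800 to 92185 against 3088.6 to 4930.1 at the probe used. HSPE1 (HSP10), the lid of that chamber, was not well above background on any array at the probe that carries its name. That probe is annotated on the minus strand, and whether it measures HSPE1 was not tested. Of 3 HSPE1 probes annotated by transcript alone, all on the plus strand, 1 was called lower by -0.47 (adjusted p = 0.017, limma). It lies at chr37:6996598-6996657, with intensities of 1370.5 to 2260.6, on the other side of the HSPD1 probes from the others. Those lie at chr37:7023988-7024047 and chr37:7024271-7024330 and were at -0.11 and -0.01 (adjusted p = 0.34 and 0.93, limma). The probe at -0.11 was the brightest, at 53093 to 65975. Whether the called probe measures HSPE1 was not tested. HSPA9 (mortalin), the matrix HSP70 of protein import, was 5.47, 5.16 and 5.24 alone and 5.12, 5.00 and 5.01 in mixed culture, without overlap. Its difference of -0.25 (SE 0.10, adjusted p = 0.15, limma) did not pass.

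DNAJC11, a J protein of the mitochondrial membrane complex that shapes cristae, was -1.29, -1.12 and -1.11 alone and -1.47, -1.57 and -1.49 in mixed culture. The groups did not overlap, and the difference was -0.34 (SE 0.08, adjusted p = 0.046, limma). With the replicate number as a block, DNAJC11 (adjusted p = 0.068, limma) and HSPD1 (adjusted p = 0.053, limma) lost their calls, as they did with spike-in scaling, and DNAJC11 also by the methods' t-test, with the mean over the probes of each gene and without mixed replicate 1. Under the block HSPB9 was called lower instead, at -0.37 (adjusted p = 0.046, limma).

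Most HSPB genes encode small heat shock proteins, which hold unfolded clients without ATP. The genes named HSPB, HSPB11 among them, divided in direction, and 0 of 6 tested were called (limma, 2 higher and 2 lower at an unadjusted p under 0.05, and 0 by the methods' t-test after adjustment). HSPB8, which works with BAG3 in selective autophagy, was 3.89, 3.87 and 3.90 alone and 4.09, 4.55 and 4.47 in mixed culture. Every mixed array was higher, and the difference was 0.48 (SE 0.13, adjusted p = 0.058, limma). With normexp background correction HSPB8 and HSPB7 were called higher. All 6 HSPB8 probes gave a positive difference, from 0.07 to 0.48, and 1 was called higher, by 0.44 (adjusted p = 0.046, limma). The probe at 0.34 is annotated on the minus strand, opposite to the others, and whether it measures HSPB8 was not tested. HSPB1 (HSP27), which guards actin filaments, was 4.91, 4.82 and 5.05 alone and 4.83, 4.48 and 4.64 in mixed culture. These groups overlapped, and the difference was -0.28 (SE 0.11, adjusted p = 0.15, limma). The remaining HSPB genes ran from -0.37 for HSPB9 to 0.37 for HSPB7.

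Probes of the same gene could be compared for 31 genes. In 24 of these all tested probes gave a difference of the same sign. Over the 118 tested probes of the 61 genes, 1 was called higher and 14 lower. Taken over both directions this is 12.7% of them, near the 11.2% of all tested probes. By direction it is 0.847% higher and 11.9% lower, against 5.5% and 5.72% of all tested probes. Probes of 1 gene share their transcript.

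**Figure D3:**
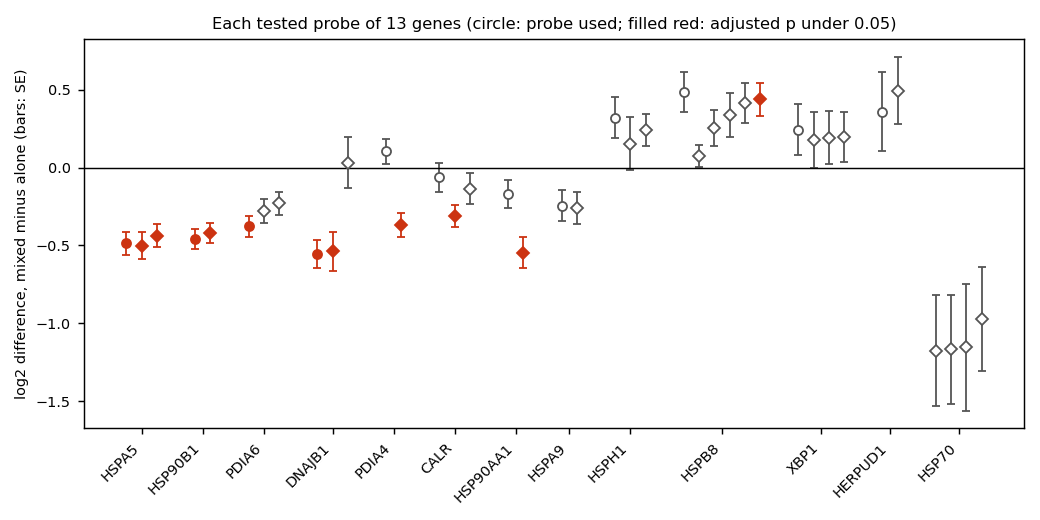
Log2 difference, mixed minus alone, with its standard error (y axis) at each tested probe of 13 genes (x axis), where circles mark the probe used and filled red symbols an adjusted p under 0.05. All 3 HSPA5 probes lie near -0.5, all 6 HSPB8 probes lie above 0, PDIA4 and DNAJB1 have probes on both sides of 0, and the 4 probes of HSP70, which is outside the rule, lie at -0.97 to -1.18. The HSPB8 probe at 0.34 is annotated on the minus strand, opposite to the others.

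HSF1 was 4.73, 4.40 and 4.42 alone and 4.71, 4.62 and 4.61 in mixed culture. Alone replicate 1 was the highest of the 6 arrays, and the difference was 0.13 (SE 0.11, adjusted p = 0.44, limma), or -0.03 with spike-in scaling. HSF2, found by its transcript after its values were seen, was called lower at that probe by -0.60 (adjusted p = 0.041, limma), while the probe named HSF2 was at -0.35 (adjusted p = 0.21, limma).

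Of the UPR sensors and factors, 0 of 5 tested were called (limma, 0 higher and 1 lower at an unadjusted p under 0.05, and 0 by the methods' t-test after adjustment). ATF6 was -2.56, -2.66 and -2.43 alone and -3.02, -2.79 and -2.86 in mixed culture. All mixed arrays were lower, by -0.34 on average (SE 0.10, adjusted p = 0.072, limma). EIF2AK3 was at 0.17 (SE 0.07, adjusted p = 0.16, limma), without overlap between the groups. ERN1 was well above background on 1 alone and 1 mixed array and was not tested.

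The factors and targets further down the response shared a pattern across arrays. HERPUD1, an ER membrane protein of degradation induced by the UPR, was 4.53, 3.59 and 3.61 alone and 4.21, 4.37 and 4.23 in mixed culture. Alone replicate 1 was above all mixed arrays, whereas the other alone arrays were below them. XBP1 was 4.95, 4.32 and 4.43 alone and 4.77, 4.82 and 4.84 in mixed culture. TRIB3, a pseudokinase induced by ATF4 and DDIT3, was 0.35, -0.30 and -0.33 alone and 0.42, 0.20 and 0.10 in mixed culture. Both followed HERPUD1 in that alone replicate 1 stood apart from the other alone arrays.

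The differences were 0.36 (SE 0.25, adjusted p = 0.38, limma) for HERPUD1, 0.24 (SE 0.16, adjusted p = 0.36, limma) for XBP1 and 0.34 (SE 0.20, adjusted p = 0.29, limma) for TRIB3. Without alone replicate 1, a fit that called 26.4% of all tested probes, each of these genes was called higher. HERPUD1 rose by 0.67 (adjusted p = 0.0067, limma), XBP1 by 0.44 (adjusted p = 0.013, limma) and TRIB3 by 0.56 (adjusted p = 0.022, limma). That array was set apart by these same values, and each gene was called in 1 of 15 alternatives.

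DDIT3 (CHOP), the factor of the late and pro-apoptotic response, was 0.59, -0.15 and -0.22 alone and -0.02, 0.07 and -0.08 in mixed culture. Its difference was -0.09 (SE 0.21, adjusted p = 0.82, limma), and without alone replicate 1 it turned to 0.17 (adjusted p = 0.15, limma). ATF4, whose protein level is set largely by translation, was at 0.10 (SE 0.09, adjusted p = 0.45, limma), or -0.06 with spike-in scaling. ASNS (asparagine synthetase), an ATF4 target found by its description only, gave -0.16 and -0.03 at its 2 probes (adjusted p = 0.30 and 0.87, limma). Of the 7 tested UPR factors and targets, 6 were highest among the alone arrays in replicate 1, as were 36 of all 61 genes.

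**Figure D4:**
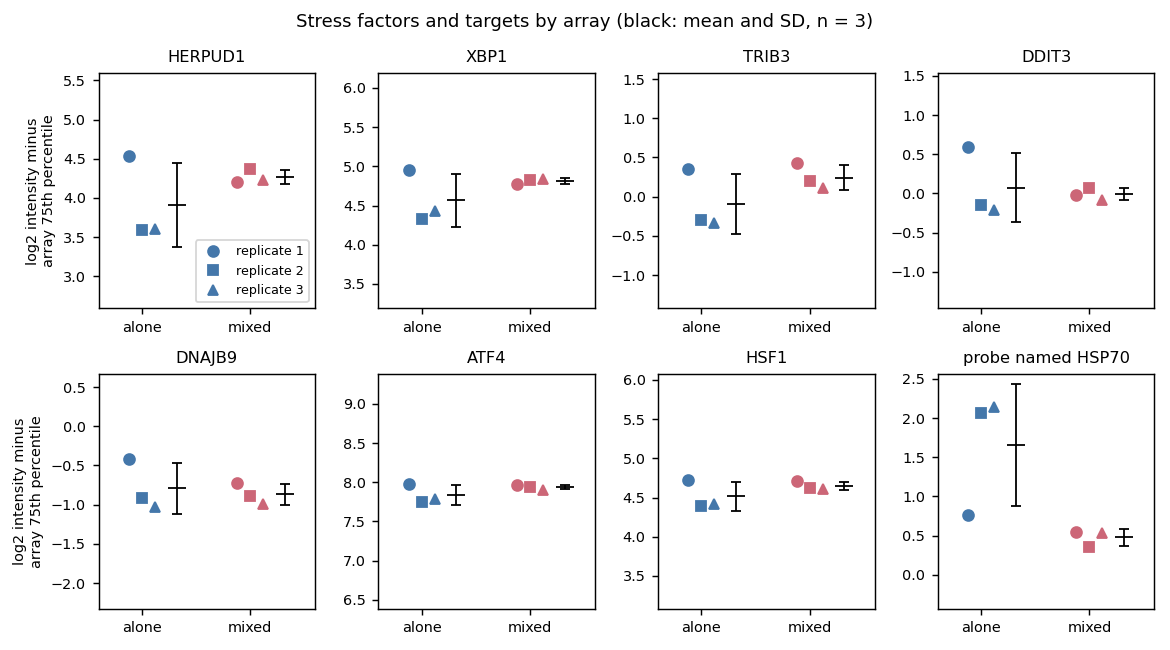
Scaled log2 intensity (y axis, log2 intensity minus the 75th percentile of the array) of stress factors and targets on each array (x axis: culture alone or mixed culture; symbols: replicates 1 to 3; black: mean and SD, n = 3), with each panel spanning the same range. Alone replicate 1 stands above the other alone arrays for HERPUD1 (4.53 against 3.59 and 3.61), XBP1, TRIB3, DDIT3 and DNAJB9, and below them at the probe of HSP70 (0.77 against 2.06 and 2.14), a gene outside the rule.

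Without alone replicate 1, 7 of the 72 genes were called higher and 10 lower, which is 27.4% of the 62 then tested against 26.4% of all tested probes. The 6 genes called on all arrays were among the 10. Without alone replicate 2, alone replicate 3, mixed replicate 2 or mixed replicate 3, 0 were called (limma), while 3 to 4 were higher and 10 to 12 lower at an unadjusted p under 0.05. These fits called 7 to 24 probes of the whole array, and 21.9% to 23.0% of all tested probes had an unadjusted p under 0.05, so the calls fell over the whole array. The 6 called genes kept a negative difference in all of these fits, HSPA5 from -0.45 to -0.51 and HSP90B1 from -0.45 to -0.47. Without mixed replicate 1, HSPB8 was called higher and 5 genes lower, which left out DNAJC11.

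Further genes of protein folding and of the stress response were taken from 6 lists of partners. Of 115 on the array, 112 were tested, 4 were called higher and 10 lower, which is 12.5% against 11.2% of all tested probes (5.5% higher and 5.72% lower) and thus close to the array. As with the members, 0 were called without alone replicate 2, alone replicate 3, mixed replicate 2 or mixed replicate 3 (limma), where 28 to 33 had an unadjusted p under 0.05, while 33 were called without alone replicate 1 and 7 without mixed replicate 1, where 26.4% and 7.46% of all tested probes were called. The largest rise was that of ATF5, a transcription factor of the integrated and mitochondrial stress responses, at 3.02, 2.32 and 2.39 alone and 4.05, 4.43 and 4.24 in mixed culture. Every mixed array was higher, by 1.67 on average (SE 0.20, adjusted p = 0.014, limma). ATF3, a stress factor that is also among the immediate early genes above, rose by 0.74 (SE 0.13, adjusted p = 0.024, limma). EIF2AK2 (PKR), a kinase that responds to double-stranded RNA, rose by 0.46, and CCT6B, a subunit of the cytosolic chaperonin, by 0.54.

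Among the ER partners, HYOU1 (GRP170), the exchange factor of HSPA5, was 0.64, 0.55 and 0.60 alone and 0.13, 0.23 and 0.14 in mixed culture. All mixed arrays were lower, by -0.43 on average (SE 0.07, adjusted p = 0.021, limma). WFS1, an ER membrane protein, was -1.19, -0.66 and -0.72 alone and -1.55, -1.81 and -1.88 in mixed culture, a difference of -0.89 (SE 0.16, adjusted p = 0.026, limma). GRPEL1 and GRPEL2, exchange factors of the mitochondrial HSP70, were lower by -0.44 and -0.46. HSF4, a heat shock factor, was lower by -0.55 and PFDN2, a prefoldin subunit, by -0.43, and another 4 partners were called lower by -0.28 to -0.40. With the replicate block WFS1 (adjusted p = 0.05002, limma) and CCT6B (adjusted p = 0.075, limma) lost their calls, as did 2 of the partners not named here.

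Read against the same 11.2% of all probes, the lists are small. The ER chaperones and oxidoreductases had 3 of 19 called, all lower. The list of cytosolic co-chaperones, which also holds heat shock factors, had 2 of 20 called, HSF4 among them. Mitochondrial partners had 2 of 8. All of these were lower, and the chaperonin and prefoldin subunits had 1 higher and 1 lower of 10. Translocation and signalling genes had 3 higher and 2 lower of 37. Of 18 genes of ER-associated degradation 0 were called (limma, 3 higher and 3 lower at an unadjusted p under 0.05), and the methods' t-test called 1 after adjustment. The median difference of the 112 partners was -0.07.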

How the data were processed

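RNA of RasV12 cells from culture alone (3 samples) and mixed culture (3 samples) was measured on 1-colour arrays, and samples were grouped by their titles. The authors deposited, for each array, intensity values per spot from Agilent Feature Extraction 10.10.1.1 (per the file headers), with a background-corrected processed signal. The authors also deposited a table of log2 values, which equal the log2 processed signal minus a constant close to the 75th percentile of the array. How the authors filtered that table is not given in the sources used here.

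Control and outlier-flagged spots were left out, spots of a probe were averaged on the log2 scale, and the 75th percentile of each array (592 to 699.6 units of intensity) was subtracted. A probe entered the test when every array of 1 group or of both had it well above background. R 4.3.3 and limma 3.58.1 (lmFit and eBayes) gave two-sided p-values, which were adjusted over all tested probes by Benjamini and Hochberg's method and called under 0.05. Tables and plots used Python 3.11.15, pandas 2.3.3, numpy 2.4.6 and matplotlib 3.10.9. In simulated data for this comparison (26528 probes, 200 changed) 74% of 2-fold and 95% of 4-fold changes were recovered with 8 false calls. The simulated noise was independent between arrays and no smaller change was simulated. These rates therefore do not cover the differences of the members, all under 2-fold. Precision is limited by the small number of arrays.

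The members and all lists were chosen with earlier results of these data known. Named were all called members, a fixed set of major chaperones, sensors and factors, the ends of ranges, and, of the partners, the 6 largest rises and falls among the called. Probes outside the rule (HSP70, HSPA8, further HSP90AA1, HSPD1 and HSPE1 transcripts, DNAJB6, DNAJB11, DNAJC2, DNAJC12, HSF2, ASNS) were found by the array's description after their values were seen.

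After removal of the group means, arrays with the same replicate number correlated at 0.35, 0.16 and 0.30, all above 0.1. The number was therefore fitted as a block in an alternative, whereas the main fit did not pair the samples. Alone replicate 2 correlated more with mixed replicate 3 (0.24) than with mixed replicate 2, so whether the numbers pair the samples is uncertain. The pairing comes from the titles alone, and the number is also the position on the slide. Alternatives were quantile normalization, normexp background correction (offset 50), no filter, spike-in scaling, a filter that asks for all 6 arrays, the deposited table, the replicate block, the methods' t-test, leaving out each array, and the mean over the probes of a gene. Because each slide held a single group, slide could not be fitted as a block.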

Additional observations from a re-analysis of the deposited data

How the results depend on the processing

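Leaving out 1 array moved the counts most. Over the array the 2978 called probes ranged from 7 to 7335, members called higher from 0 to 7, members called lower from 0 to 10 and partners called from 0 to 33. The upper ends came without alone replicate 1, and with fewer arrays fewer degrees of freedom remain. With no filter 12 probes, 0 members and 0 partners were called. Normexp background correction gave 2 members higher (HSPB7 and HSPB8), 7 lower and 25 partners. Spike-in scaling, which shifts the median of all probes by -0.16 (log2), gave 1004 probes, 3 partners and a member median of -0.23, with 4 members still called lower. The methods' t-test gave 828 probes and 6 partners after adjustment. The replicate block changed the count of members called lower from 6 to 5 (HSPD1 and DNAJC11 lost, HSPB9 gained) and of partners from 14 to 11 (4 lost, 1 gained). Among all tested probes of members it kept 10 calls, lost 5 and gained 2. Signs turned for CALR (0.00092 with quantile normalization, and -0.107 to 0.0211 over the fits without 1 array), for ATF4 (-0.0592), HSF1 (-0.0279) and PDIA4 (-0.0568) with spike-in scaling, for PDIA4 with the mean over its probes (-0.131), and without alone replicate 1 for DDIT3 (-0.231 to 0.171 over the fits without 1 array) and DNAJB9 (-0.197 to 0.107). The cause was not tested. The slide block was not run.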
